A study of Drosophila melanogaster with 18 samples.

Results

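The step described here runs from nuclear cycle 13 to early nuclear cycle 14 in diploid Drosophila embryos, the interval in which the last synchronous division of the shared cytoplasm ends and cell membranes begin to grow between the nuclei. It was chosen as the comparison of 3 early cycle 14 wild-type arrays with 3 cycle 13 wild-type arrays, 6 of the 18 arrays in the study, across all 10035 genes tested. Embryos of both groups came from w;histone H2-GFP parents, so the fluorescent histone and the w background were shared. They were collected at 25C, timed from telophase and picked by hand, about 50 embryos to each of 3 biological replicates. Cycle 13 embryos were taken 15 min after the division that ended cycle 12, and early cycle 14 embryos 15 min after the division that ended cycle 13. The other 12 arrays held diploid late cycle 14 embryos and haploid embryos of cycles 14 and 15. RNA was hybridised to single-colour Affymetrix expression arrays, and every intensity below is on one scale shared by all 18 arrays.

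The early fly embryo develops on RNA that its mother loaded into the egg, while its nuclei divide in rapid and nearly synchronous cycles. Around cycle 14 the cell cycle lengthens, the bulk of zygotic transcription begins and many maternal RNAs are destroyed, a change known as the maternal-to-zygotic transition. In the same interphase the plasma membrane folds in around each nucleus and turns the syncytium into a sheet of cells, a process called cellularization.

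All 11 blastoderm markers (Kr, kni, hb, eve, ftz, h, twi, sna, slam, nullo and bnk) lay above background on all 6 arrays, and their summed intensity was 9283 to 10897 in cycle 13 and 17199 to 18195 in early cycle 14. Background was set at an intensity of 31.9, below which 95% of the readings of 20 negative control probe sets lay. Of 7 markers of the later nervous system on the array, none was above background on all arrays of a group, and of 8 markers of muscle, blood and cuticle only crq was. Of 12 markers of the mother's eggshell and yolk protein tissue, 7 were above background on no array, and the list summed to 135 to 208 in cycle 13 and 201 to 317 in early cycle 14. Among the 12, Cp15 was above background on 2 cycle 13 arrays and all 3 early cycle 14 arrays, with means of 31.5 and 61.0. Replicate arrays correlated at r = 0.943 to 0.947 on the log2 scale, and arrays of different groups at 0.918 to 0.932. The upper quartile of the deposited intensities was 206 to 268 in cycle 13 and 184 to 215 in early cycle 14. The ratio of 3' to 5' signal of the Act5C control probe sets was 4.43 to 5.46 and 4.36 to 5.15, and that of eIF4A 3.03 to 3.17 and 2.94 to 3.47, so the groups overlapped. That of the GAPDH control probe sets was 14.6 to 18.4 in cycle 13 and 11.3 to 13.5 in early cycle 14, with no overlap, and its part in the results was not tested. On the first principal component of the 6 arrays, cycle 13 replicate 2 lay nearest to the early cycle 14 arrays, at -38.3 where its fellow replicates lay at -59.3 and -50.4 and early cycle 14 at 45.3 to 56.6. On the second component (17.6% of the variance) cycle 13 replicate 1 lay apart from its fellow replicates, at 63.2 where they lay at -32.6 and -37.7. Early cycle 14 lay at -21.6 to 24.0 there. Without cycle 13 replicate 2, 361 genes were at least 2-fold higher and 630 at least 2-fold lower, against 325 and 626 with all arrays. Without cycle 13 replicate 1 the counts were 298 and 549.

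Between cycle 13 and early cycle 14, 32.9% of genes were called different, which is 3300 genes at an adjusted p below 0.05 (limma, Benjamini-Hochberg over all tested probe sets). Of these, 1983 were higher in early cycle 14, 19.8% of all genes tested, and 1317 were lower, 13.1%. The larger changes ran the other way. Only 325 genes, 3.24%, were higher by at least 2-fold, whereas 626, 6.24%, were lower by at least 2-fold. The median log2 difference over all genes was 0.10, with quartiles at -0.42 and 0.44. The split of the small changes depended on the scale: 60.1% of all calls were higher here, against 64.5% on the deposited scale, 43.4% with each array centred on its median and 16.2% with each array centred on ribosomal protein probe sets. Among the calls of at least 2-fold the share that was higher was 34.2%, 36.1%, 24.4% and 15.7% in the same order. For the gene lists below, ribosomal protein centring left 11 of 26 gap and terminal, 4 of 14 pair-rule and segment polarity, 11 of 27 dorsal ectoderm and 2 of 19 sex determination genes at least 2-fold higher. It put 7 of 19 origin, 11 of 23 fork, 10 of 26 repair, 8 of 26 kinetochore, 10 of 32 spindle and 10 of 27 germ plasm genes at least 2-fold lower. Over all 10035 genes tested, that centring gave 214 at least 2-fold higher and 1150 at least 2-fold lower. In whole embryos, a change in the number of cells that hold a transcript cannot be told apart from a change in the amount per cell.

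**Figure D1:**
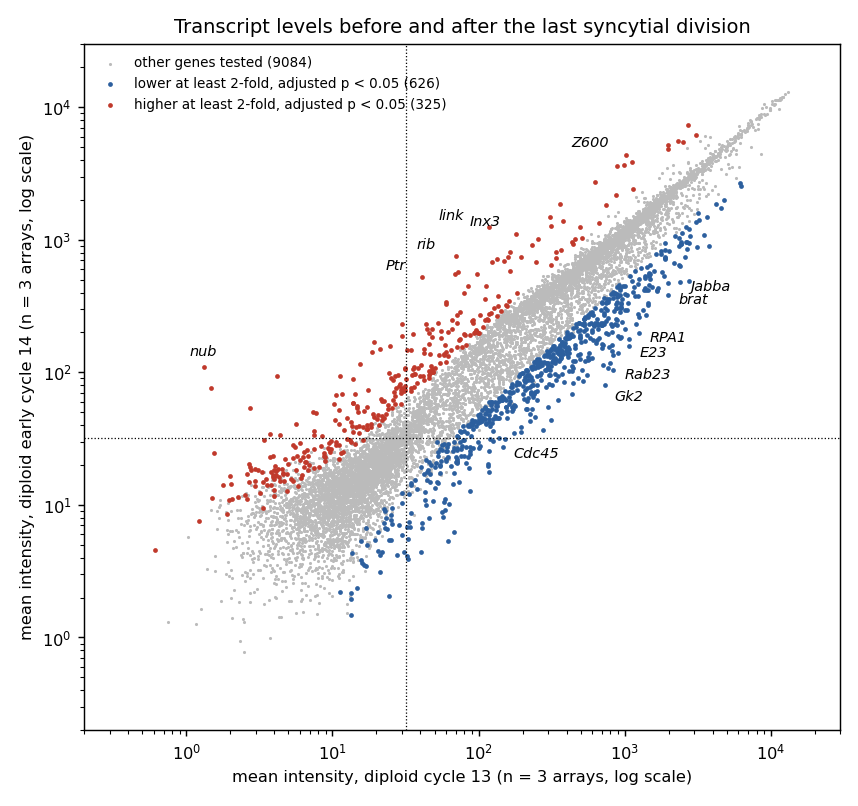
Mean intensity of each tested gene in diploid cycle 13 (x axis) and diploid early cycle 14 (y axis), 3 arrays each, both on log scales. Red and blue points are genes called higher (325) or lower (626) by at least 2-fold, grey points all other genes, and dotted lines mark the background of 31.9. The blue cloud holds more bright genes than the red one.

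Of the genes called at least 2-fold higher, 128 were above background on all 6 arrays with no overlap between the groups, where 26.9% of all genes tested were higher without overlap. The BTB-domain transcription factor rib, known for its part in tube formation, and link rose most among these genes, which already had a measurable level in cycle 13. The gene link read 108, 111 and 132 on the cycle 13 arrays and 1198, 1350.4 and 1188 on the early cycle 14 arrays, a log2 difference of 3.41 ± 0.08 (SE, adjusted p = 6.4e-19). The neurogenic channel-like gene bib, which acts with the Notch pathway, read 53.3, 93.1 and 69.9 and then 525, 582 and 609, a log2 difference of 3.02 ± 0.15 (adjusted p = 1.7e-13). In each case every early cycle 14 array lay far above every cycle 13 array, and the rule that chose these genes required no overlap. The adenylate cyclase Ac78C rose from 51.2, 93.7 and 62.9 to 604, 459 and 579, a log2 difference of 3.02 ± 0.15 (adjusted p = 1.7e-13). Cycle 13 replicate 2 was the highest cycle 13 array for both bib and Ac78C. It lay below all 3 early cycle 14 arrays, as the same rule required.

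A pair of gap junction genes moved in opposite directions. Innexins form the gap junction channels of insects, and 4 of 6 tested rose while 1 fell, against 19.8% and 13.1% of all genes, or 2 and 1 with ribosomal protein centring. Inx3 rose from 178, 208 and 156 to 985, 1095 and 1253, a log2 difference of 2.62 ± 0.10 (adjusted p = 8.8e-16). The germ line innexin zpg fell from 922, 845 and 1056 to 192, 202 and 158, a log2 difference of -2.36 ± 0.29 (adjusted p = 7.2e-07). The groups did not overlap for either gene, and zpg went on to 38.3 ± 4.15 in late cycle 14 (SD, n = 3) while Inx3 reached 3567 ± 208.

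The neuroblast adaptor mira, which carries fate determinants to one side of a dividing neural stem cell, rose from 59.5 ± 1.96 to 342 ± 21.3 (SD, n = 3; log2 2.52 ± 0.09, adjusted p = 8.8e-16). The photoreceptor fate gene phyl rose from 124 ± 25.4 to 676 ± 67.9, and the Dpp target Dtg from 98.1 ± 13.2 to 554 ± 57.2. The ABC transporter Mdr49, the scavenger receptor Sr-CII, the zinc finger gene l(3)neo38 and CG43085 complete the 12 largest rises, with log2 differences of 2.47, 2.41, 2.41 and 2.47. All 12 separated the groups without overlap, as the rule that chose them required, and all 12 had a higher group mean again in late cycle 14.

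**Figure D2:**
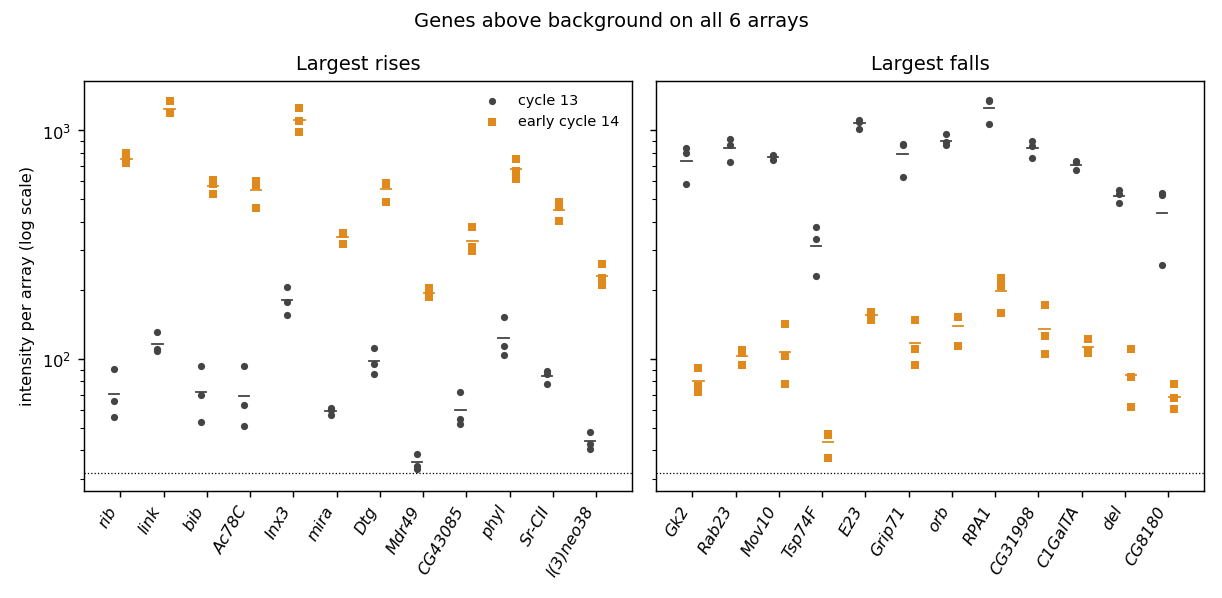
Intensity on each array (log scale) of the 12 largest rises and 12 largest falls among genes above background on all 6 arrays, with circles for cycle 13, squares for early cycle 14 and short lines for group means. The dotted line is the background of 31.9. The 3 arrays of a group lie close together beside the distance between groups, and CG8180 has the widest cycle 13 spread, from 257 to 532.

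Some genes went from an unmeasurable level in cycle 13 to a clear signal in early cycle 14. There were 12 genes below background on all cycle 13 arrays and at or above 63.9, which is 2 times background, on all early cycle 14 arrays. The brightest was CG15628, at 12.7, 27.8 and 17.4 in cycle 13 and 145, 169 and 194 in early cycle 14, at least 5.26-fold higher measured against the background. The neuroectodermal Sox factor SoxN reached 148, 148 and 179, at least 4.93-fold higher. The BTB factor lov reached 176, 133 and 139.7, at least 4.64-fold higher. None of their cycle 13 arrays rose above background, the highest being 29.6 for SoxN. Of the rest, Gp150, a leucine-rich repeat membrane protein, was at least 3.56-fold higher, the zinc finger gene jim at least 3.11-fold and phu at least 4.39-fold. The POU factor nub, the kinase subunit Pka-C3, CHKov1 and CG43394 were at least 3.40-fold, 2.94-fold, 3.01-fold and 2.95-fold higher. The epidermal regulator grh, which opens chromatin for later epithelial genes, was below background in cycle 13 at 8.55, 12.03 and 11.1 and reached 62.9, 62.99 and 77.3, at least 2.11-fold higher.

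Genes that rose from below background had long spans. Length is given as the span from first to last base in the annotation (Release 6 plus ISO1 MT), which includes introns. The median span was 2371 bases over all genes with an annotated span, and 5806 bases over the 53 genes that were called at least 2-fold higher, below background on all cycle 13 arrays and above it on all early cycle 14 arrays. Of those 53, 28.3% spanned more than 20 kb, against 7.53% of all genes. Genes at least 2-fold higher that were already above background in cycle 13 had a median span of 3919 bases, and genes at least 2-fold lower 3275 bases, with 4.79% over 20 kb. The 423 genes whose 95% interval lay within 0.25 of 0 on the log2 scale, 4.22% of all genes, had a median of 1867 bases. These are descriptions of the called groups, with no test, and a gene's level in cycle 13 was part of how the groups were cut.

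**Figure D3:**
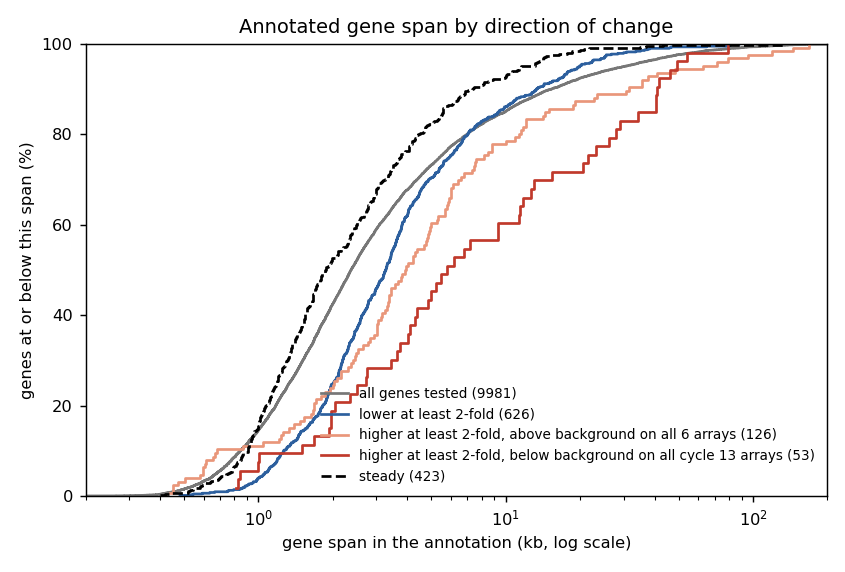
Cumulative share of genes (y axis, percent) by annotated gene span (x axis, kb, log scale) for all genes tested, genes lower at least 2-fold, genes higher at least 2-fold from a measurable or an unmeasurable cycle 13 level, and steady genes. The curve of genes below background in cycle 13 lies furthest to the right, with a median span of 5806 bases against 2371 for all genes.

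Of the gene lists examined, that of head-to-tail patterning had the highest share of rises of at least 2-fold. Gap and terminal genes divide the embryo into broad regions. Of 26 tested, 16 were called at least 2-fold higher and none at least 2-fold lower, beside 3.24% and 6.24% of all genes. The median log2 difference was 1.36, beside 0.10 for all genes. Of the 26, 14 were above background on all 6 arrays and 6 on none. The Sox gene D rose from 585, 733 and 552 to 2870.1, 2649 and 2724, a log2 difference of 2.15 ± 0.10 (adjusted p = 3.3e-14). The gap gene gt rose from 396, 535 and 443 to 893, 1093 and 1067 (log2 1.16 ± 0.14, adjusted p = 8.2e-07). Both were far above background in cycle 13, and the groups did not overlap. The head gap genes came from lower levels: ems read 32.98, 39.2 and 35.97 and then 89.9, 92.7 and 107 (log2 1.42 ± 0.20, adjusted p = 6.2e-06), and oc, also called otd, was below background at 23.2, 24.9 and 27.8 and reached 95.3, 82.7 and 92.6, at least 2.82-fold higher. The hindgut gene byn was above background on 1 of 3 cycle 13 arrays, at 25.5, 34.8 and 26.99, and read 86.8, 69.9 and 90.4 in early cycle 14 (adjusted p = 1.3e-06). The forkhead genes fkh and croc were below background in cycle 13 and reached 55.5 ± 12.5 and 51.99 ± 11.3 (SD, n = 3), at least 1.71-fold and 1.60-fold higher.

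Pair-rule and segment polarity genes set up the segments. Of 14 tested, 8 were called at least 2-fold higher and none lower, beside 3.24% and 13.1% of all genes. The list median was 1.09. Of the 14, 5 were above background on all 6 arrays and 6 on none. The 8 include opa and en, which were below background in both groups. The pair-rule gene prd rose from 58.7, 70.3 and 57.5 to 196, 179 and 230.0, a log2 difference of 1.69 ± 0.13 (adjusted p = 7.0e-10). The gene odd rose from 84.2, 81.5 and 104 to 279.7, 200.4 and 256, a log2 difference of 1.44 ± 0.12 (adjusted p = 2.7e-09). For both, the lowest early cycle 14 array was well above the highest cycle 13 array. The late pair-rule gene opa was called as well, but it stayed below background in both groups, at 1.55 ± 0.847 and 24.7 ± 6.73, before reaching 746 ± 28.3 in late cycle 14. Segment polarity genes were in a like position: the Hedgehog effector ci read 7.38 ± 2.92, then 50.4 ± 12.6 (at least 1.55-fold higher) and then 957 ± 81.9, and en was still below background in early cycle 14, at 15.3 ± 3.76.

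**Figure D4:**
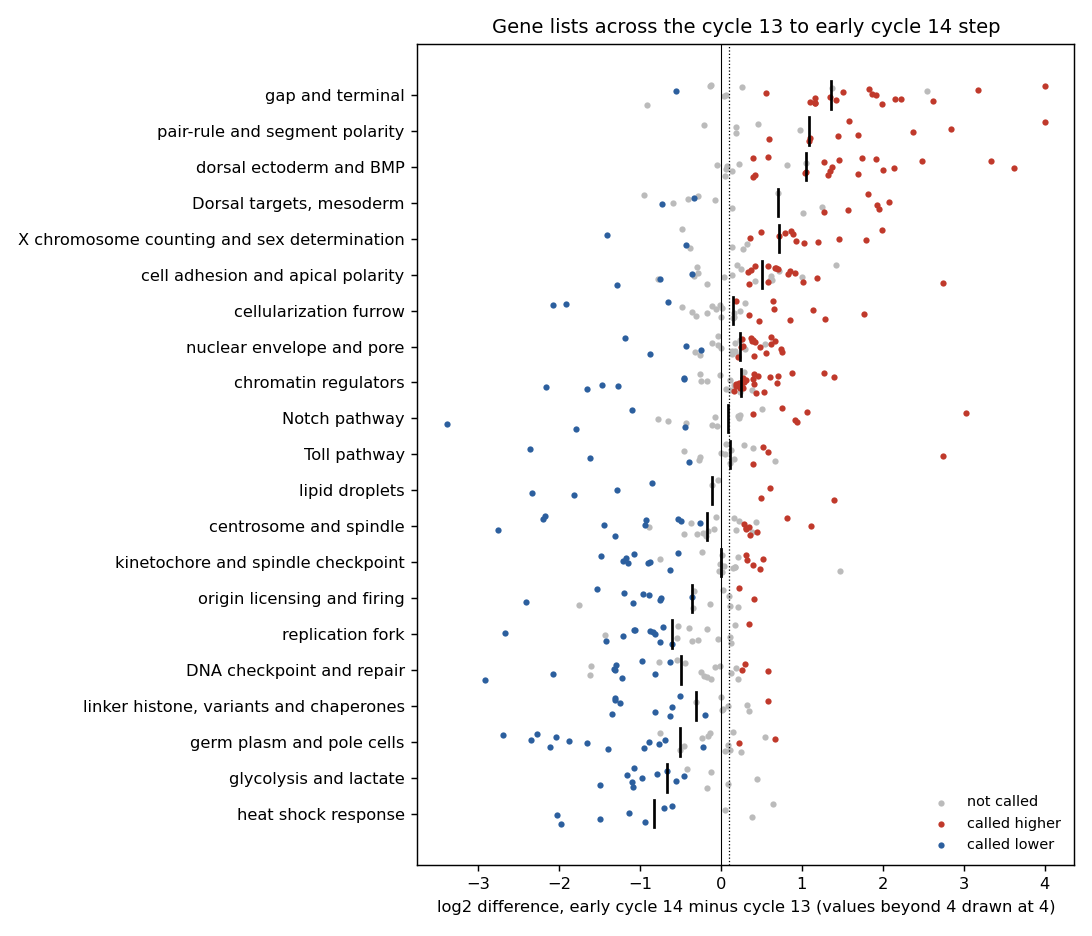
Log2 difference of each tested member of 21 gene lists between early cycle 14 and cycle 13, with red for genes called higher, blue for lower and grey for genes not called. Thick lines are list medians, the solid line is 0 and the dotted line is the median of all genes, 0.10. The gap and terminal, pair-rule and segment polarity, and dorsal ectoderm lists lie at the top right, with medians of 1.36, 1.09 and 1.06. The replication, germ plasm, glycolysis and heat shock lists have medians to the left of 0.

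The dorsal side of the embryo showed the same direction. The dorsal ectoderm is patterned by BMP signalling. Of 27 tested genes of the list, 15 were called at least 2-fold higher and none lower, beside 3.24% and 13.1% of all genes. The list median was 1.06. The BMP ligand dpp rose from 45.9, 63.2 and 56.1 to 166, 182 and 201, a log2 difference of 1.74 ± 0.13 (adjusted p = 2.3e-10). The protease tld, which frees the ligand from its inhibitor, rose from 95.7, 127 and 115 to 458, 434 and 451, a log2 difference of 2.00 ± 0.10 (adjusted p = 4.1e-13). The groups did not overlap for dpp or tld. The TNF ligand egr rose from 48.2 ± 7.22 to 211 ± 11.4 (adjusted p = 1.2e-12). A further BMP ligand, gbb, was below background in cycle 13 and reached 55.1 ± 5.08, at least 1.72-fold higher.

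On the ventral side, 6 of 17 tested mesoderm targets of the factor Dorsal were called at least 2-fold higher, beside 3.24% of all genes. A further 2 were called lower, neither by 2-fold, beside 13.1% of all genes. The list median was 0.70. The TNF-receptor-associated factor Traf4 rose from 32.7, 37.05 and 34.2 to 127, 148 and 166, a log2 difference of 2.08 ± 0.12 (adjusted p = 2.6e-12). The genes hll and Cyp310a1 started at similarly low levels and reached 185 ± 13.7 and 107 ± 9.39 (adjusted p = 2.4e-12 and 6.0e-10). Dorsal targets of the neurogenic ectoderm did not move together. Of 9 tested, 3 were called higher and 2 lower, beside 19.8% and 13.1% of all genes, with a median of -0.12. All 3 rises and 1 of the falls were of at least 2-fold. In the Toll pathway list, upstream of these targets, 4 of 19 tested genes were called higher and 3 lower, beside 19.8% and 13.1% of all genes. The transcript of Dorsal itself, dl, fell from 232, 176 and 268 to 41.5, 44.97 and 43.4, a log2 difference of -2.36 ± 0.69 (adjusted p = 0.011, 0.056 with no intensity trend in the model). The ligand spz fell from 833, 968 and 1045 to 293, 332 and 298, a log2 difference of -1.62 ± 0.15 (adjusted p = 6.3e-09). The receptor Tl read 4499.9 ± 356 and 4710.4 ± 289 and the inhibitor cact 5284 ± 183 and 5775 ± 266, neither of which was called (adjusted p = 0.53 and 0.10), though both were called higher on the deposited scale, and cact also when at least 3 of the 6 arrays had to reach background (adjusted p = 0.041). The Toll-family receptor 18w, known for cell intercalation, was above background on 1 of 3 cycle 13 arrays, at 16.9, 41.3 and 30.9, and rose to 181, 162 and 222 (adjusted p = 7.3e-10).

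In the Notch list, 6 of 20 tested genes were called higher and 4 lower, beside 19.8% and 13.1% of all genes. The Bearded family, small inhibitors of the ubiquitin ligase encoded by neur, had members of both directions. Brd fell from 1254, 1552 and 1528 to 459.8, 319 and 484, a log2 difference of -1.80 ± 0.12 (adjusted p = 2.4e-11), and then stood at 1259.9 ± 37.8 in late cycle 14. Its relative Tom rose from 535, 726 and 503 to 1117, 1084 and 1124, a log2 difference of 0.93 ± 0.09 (adjusted p = 4.1e-08). Neither gene's groups overlapped. The ligase gene neur rose from 444 ± 55.7 to 926 ± 115, whereas the Notch inhibitor numb fell from 1769 ± 312 to 821 ± 114 (adjusted p = 5.6e-08 and 8.3e-07).

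In the receptor tyrosine kinase list, 6 of 22 tested genes were called higher and 4 lower, beside the same shares of all genes. The receptor Egfr rose from 42.4, 62.2 and 54.2 to 224, 223 and 255, a log2 difference of 2.16 ± 0.15 (adjusted p = 9.0e-11). The adaptor drk rose from 65.04 ± 10.96 to 148 ± 16.2, while the MAP kinase kinase Dsor1 fell from 361 ± 7.89 to 136 ± 9.34 and the scaffold dos from 613 ± 74.6 to 226 ± 33.97 (adjusted p = 1.2e-07, 4.1e-06 and 1.0e-07). The Hedgehog and Wnt list had 11 of 16 tested called higher and 1 lower, beside 19.8% and 13.1% of all genes. Rises of at least 2-fold were called for 3, beside 3.24% of all genes. With arrays centred on ribosomal protein probe sets, 3 genes of the list were called higher. Its largest rise was Ptr, a Patched-related membrane protein, which read 25.7, 60.02 and 37.2 in cycle 13, above background on 2 of 3 arrays, and 521, 492 and 565 in early cycle 14 (adjusted p = 4.3e-13).

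Genes that count X chromosomes and set sexual fate had 5 of 19 tested at least 2-fold higher and 1 at least 2-fold lower. Among all genes the shares were 3.24% and 6.24%. The X-linked JAK-STAT ligand upd1 rose from 136, 138 and 137 to 353, 358 and 417, a log2 difference of 1.45 ± 0.09 (adjusted p = 1.3e-11). The autosomal repressor dpn rose from 352, 351 and 393 to 889, 809.7 and 812, a log2 difference of 1.20 ± 0.12 (adjusted p = 4.0e-08). The maternal cofactor da fell from 1214, 1246 and 1236 to 424, 487 and 489, a log2 difference of -1.40 ± 0.08 (adjusted p = 3.9e-12). No array of one group reached the other group's range for these 3 genes.

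In the cellularization list, genes of the growing membrane, 9 of 26 tested were called higher and 3 lower, beside 19.8% and 13.1% of all genes. By at least 2-fold, 3 were higher and 2 lower, beside 3.24% and 6.24%. The actin regulator Sry-alpha rose from 1078, 1225 and 1079 to 3676, 3949.7 and 3919.9, a log2 difference of 1.77 ± 0.09 (adjusted p = 4.2e-13). Septin5, a filament protein of the furrow, rose from 770.2, 723 and 744 to 1757, 1875 and 1841, a log2 difference of 1.29 ± 0.06 (adjusted p = 5.8e-14). Septin4, of the same family, fell from 131, 129 and 118 to 32.4, 37.1 and 22.3, where 2 of 3 arrays were above background (adjusted p = 7.8e-04). The recycling endosome gene Rip11 fell from 456 ± 78.6 to 122 ± 25.7 (adjusted p = 1.2e-06). In the adhesion and polarity list, 15 of 34 tested were called higher and 3 lower, beside 19.8% and 13.1% of all genes. With ribosomal protein centring 3 were higher and 4 lower. The polarity gene l(2)gl, a tumour suppressor, rose from 108, 130.3 and 127 to 299, 304 and 234 (log2 1.19 ± 0.12, adjusted p = 2.2e-08), and the polarity adaptor veli fell from 932 ± 108 to 382 ± 20.7 (adjusted p = 1.8e-10).

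Lipid droplets, which store maternal fat and move along microtubules, clear inward during this step. Of 9 tested genes of their coat and transport, 3 were called at least 2-fold lower and 1 at least 2-fold higher. Among all genes the shares were 6.24% and 3.24%. Jabba, which anchors histones to the droplets, fell from 2468, 2094 and 2616 to 522, 532 and 380.2, a log2 difference of -2.33 ± 0.13 (adjusted p = 7.6e-13). The droplet coat gene Lsd-2 fell from 6343, 6054 and 6311 to 2600.4, 2669 and 2413, a log2 difference of -1.29 ± 0.15 (adjusted p = 4.5e-07). The kinesin light chain Klc fell from 811 ± 101 to 232 ± 43.9 (adjusted p = 9.7e-09). The zygotic gene halo, known to direct droplets inward, rose from 1860.4, 2308 and 1793 to 5264, 5355 and 5013, a log2 difference of 1.40 ± 0.08 (adjusted p = 3.6e-12). The groups of all 4 genes were separate.

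The 12 largest falls were taken from genes above background on all 6 arrays, so a high level in cycle 13 was part of how they were picked. Of the genes called at least 2-fold lower, 464 were above background on all 6 arrays with no overlap between the groups, where 19.7% of all genes tested were lower without overlap. The RNA helicase gene Mov10 fell from 779, 744 and 771 to 142, 104 and 78.3, a log2 difference of -2.87 ± 0.26 (adjusted p = 8.6e-09). The transporter E23 fell from 1016, 1093 and 1116 to 160.4, 161 and 149, a log2 difference of -2.78 ± 0.32 (adjusted p = 3.7e-07). The cycle 13 arrays of both were several times the early cycle 14 arrays, and both had fallen to below background by the late cycle 14 mean, at 23.7 ± 6.40 and 21.3 ± 6.64. The translational regulator orb, the piRNA gene del and the glycosyltransferase C1GalTA fell by similar factors, with log2 differences of -2.70 ± 0.27, -2.64 ± 0.23 and -2.65 ± 0.25. The other falls among the 12 largest were those of Gk2, Rab23, RPA1 and Grip71, with log2 differences of -3.19, -3.01, -2.67 and -2.75, and of the tetraspanin Tsp74F, CG31998 and CG8180, with -2.83, -2.66 and -2.60. In CG8180, cycle 13 replicate 2 read 257 where the others read 521 and 532.

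In 14 genes the signal fell from at least 2 times background on all cycle 13 arrays to below background on all early cycle 14 arrays. The replication helicase factor Cdc45 was the brightest of them, at 160.3, 111 and 167 in cycle 13 and 29.2, 30.7 and 22.3 in early cycle 14, at least 4.50-fold lower. The inositol phosphate kinase Ipk2 was at least 3.48-fold lower, the mitochondrial carboxylase subunit Mccc2 at least 2.85-fold and the kinesin Klp68D at least 2.66-fold. CG31249 was at least 2.37-fold lower. For CG9896, CG4476, dmGlut, CG12945 and Ork1 the bounds were 3.63, 3.60, 3.57, 2.74 and 2.55, and each of these 5 lost its call without at least 1 of the arrays, as listed with the alternatives at the end.

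S phase lengthens in cycle 14, and about as many DNA replication genes were called lower as were not called. Of 19 tested genes of origin licensing and firing, 9 were called lower, 2 higher and 8 neither, and of 23 tested fork genes 11, 1 and 11. Of the origin genes 4 were called at least 2-fold lower and none at least 2-fold higher, and of the fork genes 5 and none, beside 6.24% and 3.24% of all genes. The list medians were -0.36 and -0.61. The kinase Cdc7, which fires origins, fell from 906, 906 and 844 to 315, 310.5 and 292, a log2 difference of -1.53 ± 0.11 (adjusted p = 2.3e-10). The origin recognition subunit Orc1 fell from 1694, 1486 and 1304 to 595, 694 and 649, a log2 difference of -1.20 ± 0.15 (adjusted p = 7.6e-07). The groups did not overlap for either gene. At the fork, the clamp loader subunit RfC4 fell from 398, 288 and 445 to 135, 131 and 149.5 and the polymerase epsilon subunit PolE2 from 218 ± 30.8 to 93.7 ± 10.5 (adjusted p = 5.3e-09 and 3.9e-06). The helicase subunit Mcm2 fell from 2362 ± 105 to 1207 ± 66.4 and the ribonucleotide reductase subunit RnrL from 3150.0 ± 191 to 1716 ± 86.7 (adjusted p = 3.2e-09 and 1.2e-08). Not all replication genes were called lower. The sliding clamp PCNA read 2721 ± 159.7 and 2964 ± 343 (log2 0.12 ± 0.07, adjusted p = 0.26), called higher on the deposited scale only, and the licensing factor dup, the fly Cdt1, read 3595 ± 266 and 3643 ± 121 (log2 0.02 ± 0.09, adjusted p = 0.92).

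Of 26 tested DNA checkpoint and repair genes, 9 were called lower, 3 higher and 14 neither, where 13.1% of all genes were lower and 19.8% higher. By at least 2-fold, 6 were lower and none higher, beside 6.24% and 3.24% of all genes, and the list median was -0.50. The break repair gene rad50 fell from 309.5, 309.5 and 271 to 131, 112 and 112, a log2 difference of -1.33 ± 0.14 (adjusted p = 6.1e-08). The mismatch repair gene Msh6 fell from 218 ± 23.04 to 87.6 ± 6.81 (adjusted p = 7.2e-05).

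In the list of mitotic entry brakes and exit, 9 of 27 tested genes were called lower and 7 higher, beside 13.1% and 19.8% of all genes. By at least 2-fold, 4 were lower and 2 higher, beside 6.24% and 3.24%. The kinase gwl, which holds cells in mitosis by restraining the phosphatase PP2A, fell from 1661, 1648 and 1735 to 416, 479 and 393, a log2 difference of -1.97 ± 0.11 (adjusted p = 1.2e-12). Its substrate endos fell from 763, 660.5 and 889 to 346, 349.5 and 319, a log2 difference of -1.18 ± 0.11 (adjusted p = 2.1e-08). The maternal regulator gnu, which activates the PNG kinase in the egg, fell from 2175 ± 204 to 667 ± 28.7 (adjusted p = 8.7e-11). Of 17 cyclins and their kinases, 7 were called higher and 5 lower, beside 19.8% and 13.1% of all genes. The only falls of at least 2-fold among them were CycH, from 937 ± 45.3 to 326 ± 18.5, and Cdk2, from 928 ± 126 to 420.4 ± 51.8 (adjusted p = 6.7e-11 and 4.5e-09). The mitotic cyclin CycB3 read 3186 ± 209 and 3449 ± 293 and was not called (adjusted p = 0.50), although it was called higher on the deposited scale and with each array centred on its median.

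Of 32 tested centrosome and spindle genes, 10 were called lower and 8 higher, beside 13.1% and 19.8% of all genes. By at least 2-fold, 5 were lower and 1 higher, beside 6.24% and 3.24%. The microtubule polymerase msps fell from 691, 709 and 686 to 171, 154 and 129, a log2 difference of -2.21 ± 0.11 (adjusted p = 3.7e-13). Its centrosomal partner tacc fell from 1409, 1255 and 1366 to 328, 303 and 262, a log2 difference of -2.18 ± 0.16 (adjusted p = 2.5e-10). The centriole scaffold gene spd-2 and the gamma-tubulin complex gene Grip71 fell as well, with log2 differences of -1.45 ± 0.11 and -2.75 ± 0.20. The groups of these 4 genes did not overlap. The centriole duplication kinase SAK was below background in cycle 13 and reached 62.4, 54.7 and 55.4, at least 1.80-fold higher. At the kinetochore, 9 of 26 tested genes were called lower and 5 higher, beside 13.1% and 19.8% of all genes. Neither call was made for 12, and the median was 0.002. By at least 2-fold, 5 were lower and none higher, beside 6.24% and 3.24%. Among these 5 were cal1 and Cenp-C, which build the centromere, at log2 differences of -1.17 ± 0.12 and -1.07 ± 0.14. The maternal alpha tubulin alphaTub67C fell from 893, 488 and 941 to 211, 189 and 179.6 (adjusted p = 8.1e-08), with cycle 13 replicate 2 the lowest of its group.

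The list of histone handling genes had falls and no rise of at least 2-fold. Of 17 tested linker histone, variant and chaperone genes, 4 were called at least 2-fold lower, with a median of -0.31. Among all genes 6.24% were at least 2-fold lower and 3.24% at least 2-fold higher. The histone mRNA binding gene Slbp fell from 1082, 778 and 1173 to 406, 384 and 384 (log2 -1.35 ± 0.11, adjusted p = 1.1e-09), and it was back at 1121 ± 115 in late cycle 14. Both subunits of the FACT chaperone, dre4 and Ssrp, fell, with log2 differences of -1.31 ± 0.14 and -1.25 ± 0.20. The embryonic linker histone BigH1 fell from 2673 ± 193 to 1518 ± 94.4, a log2 difference of -0.82 ± 0.10 (adjusted p = 4.7e-07).

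Among 40 tested chromatin regulators, 23 were called higher and 6 lower, beside 19.8% and 13.1% of all genes. With ribosomal protein centring 4 were higher and 9 lower, so only the larger changes are described. The insulator factor CTCF fell from 545, 547 and 614 to 118, 130.2 and 131, a log2 difference of -2.17 ± 0.25 (adjusted p = 2.5e-07). The Polycomb group gene esc fell from 1202, 1141 and 1199 to 442, 360.2 and 333, a log2 difference of -1.65 ± 0.12 (adjusted p = 1.8e-10). Its fellow Polycomb group gene Psc rose from 98.7, 115 and 94.1 to 226, 269.6 and 323, a log2 difference of 1.40 ± 0.13 (adjusted p = 7.4e-09). The groups did not overlap for CTCF, esc or Psc. The DNA-binding Polycomb gene phol fell and the chromatin remodelling gene osa rose, with log2 differences of -1.28 ± 0.16 and 1.27 ± 0.16.

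Some maternal RNA regulators were themselves among the falling RNAs. In the list of RNA clearance machinery, 8 of 32 tested were called lower and 6 higher, beside 13.1% and 19.8% of all genes. Neither call was made for 18, and the median was -0.07. By at least 2-fold, 5 were lower and none higher, beside 6.24% and 3.24% of all genes. The translational repressor brat fell from 1817, 1944 and 2143 to 499, 338 and 309, a log2 difference of -2.39 ± 0.17 (adjusted p = 1.4e-10). The deadenylase twin, the catalytic CCR4 subunit, fell from 2203 ± 102 to 1069.6 ± 92.02, and the cap-binding gene eIF4E1 from 4599 ± 309.6 to 1748 ± 78.5 (adjusted p = 2.1e-08 and 7.6e-12). Germ plasm and pole cell genes had 8 of 27 tested at least 2-fold lower and none at least 2-fold higher, beside the same shares. The list median was -0.50. The RNA transport gene egl fell from 570.4, 602 and 549.9 to 155, 150.3 and 115, a log2 difference of -2.05 ± 0.47 (adjusted p = 0.0017). The translational regulator BicC fell from 644, 691 and 656 to 145, 203 and 200.2, a log2 difference of -1.88 ± 0.17 (adjusted p = 7.1e-09). The bicoid localisation gene swa and the piRNA helicase gene armi fell too, with log2 differences of -1.40 ± 0.12 and -1.66 ± 0.36. The pole cell markers on the array summed to 8097 to 8487 in cycle 13 and 3534 to 4253 in early cycle 14. That fall was carried by osk, with a mean of 3776 and then 890.4, and gcl, with 3718 and then 2198. Of the others, aub read 699.9 and 744.9, tud 106 and 91.0 and vas 47.8 and 70.2.

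Genes of sugar breakdown and protein folding were mostly lower, and ribosomal protein genes were mostly not called. Of 15 tested genes of glycolysis and lactate, 10 were called lower and none higher, beside 13.1% and 19.8% of all genes. At least 2-fold lower were 5 of them, beside 6.24% of all genes, and the list median was -0.66. Gapdh1 fell from 2915, 2512 and 2453 to 1069.7, 1431 and 1232, a log2 difference of -1.08 ± 0.14 (adjusted p = 1.3e-06). Tpi fell from 393, 307 and 323 to 91.02, 159.8 and 119, a log2 difference of -1.50 ± 0.30 (adjusted p = 3.7e-04). The groups of both genes stayed apart, although the early cycle 14 arrays of Tpi spread widely. All 8 subunits of the CCT chaperonin, a ring that folds tubulin and actin, were called lower, 4 of them by at least 2-fold, and 4 of 8 were called lower on the deposited scale. CCT8 fell from 1430.2, 1158 and 1542 to 463, 459 and 368, a log2 difference of -1.68 ± 0.12 (adjusted p = 1.9e-10). Of 10 tested heat shock genes, 7 were called lower and none higher, beside the same 13.1% and 19.8% of all genes. The 7 included the chaperones Hsc70-5, at a log2 difference of -2.02 ± 0.25, and DnaJ-1, at -1.49 ± 0.11.

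Among 30 tested tRNA synthetases, 11 were called lower and 6 higher, beside 13.1% and 19.8% of all genes. Falls of at least 2-fold were seen in 5 and such rises in none, beside 6.24% and 3.24%. Among these 5 was ArgRS, which fell from 254 ± 34.7 to 110.4 ± 23.3 (adjusted p = 4.8e-06). Of 41 tested cytoplasmic ribosomal proteins, 3 were called higher and none lower, beside 19.8% and 13.1% of all genes. A rise of at least 2-fold was called for 1 of the 3, and the list median was 0.00. None was called with ribosomal protein centring, which gives these probe sets the same mean on every array and so cannot show whether they moved. The brightest of the steady genes was RpLP1, which read 13484, 13052 and 13052 in cycle 13 and 13052, 12803 and 13258 in early cycle 14. RpL41, RpS7, RpS27A and RpS20 were the next brightest. Quantile normalisation gives equal ranks equal values, so at the top of the range these values show a steady rank.

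The next diploid sample, late cycle 14, was taken 40 min after the same division. The genes at least 2-fold higher had a median level of 24.6 in cycle 13, 73.5 in early cycle 14 and 204 in late cycle 14, and those at least 2-fold lower 296, 105 and 72.03. The late cycle 14 comparison shares the early cycle 14 arrays, so only the levels are set side by side. The gene Ptr went from 40.98 ± 17.5 through 526 ± 36.7 to 3463 ± 124, and Lsd-2 from 6236 ± 159 through 2561 ± 132 to 355 ± 86.2. Others did not continue: Brd and Slbp stood near their cycle 13 level again in late cycle 14.

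**Figure D5:**
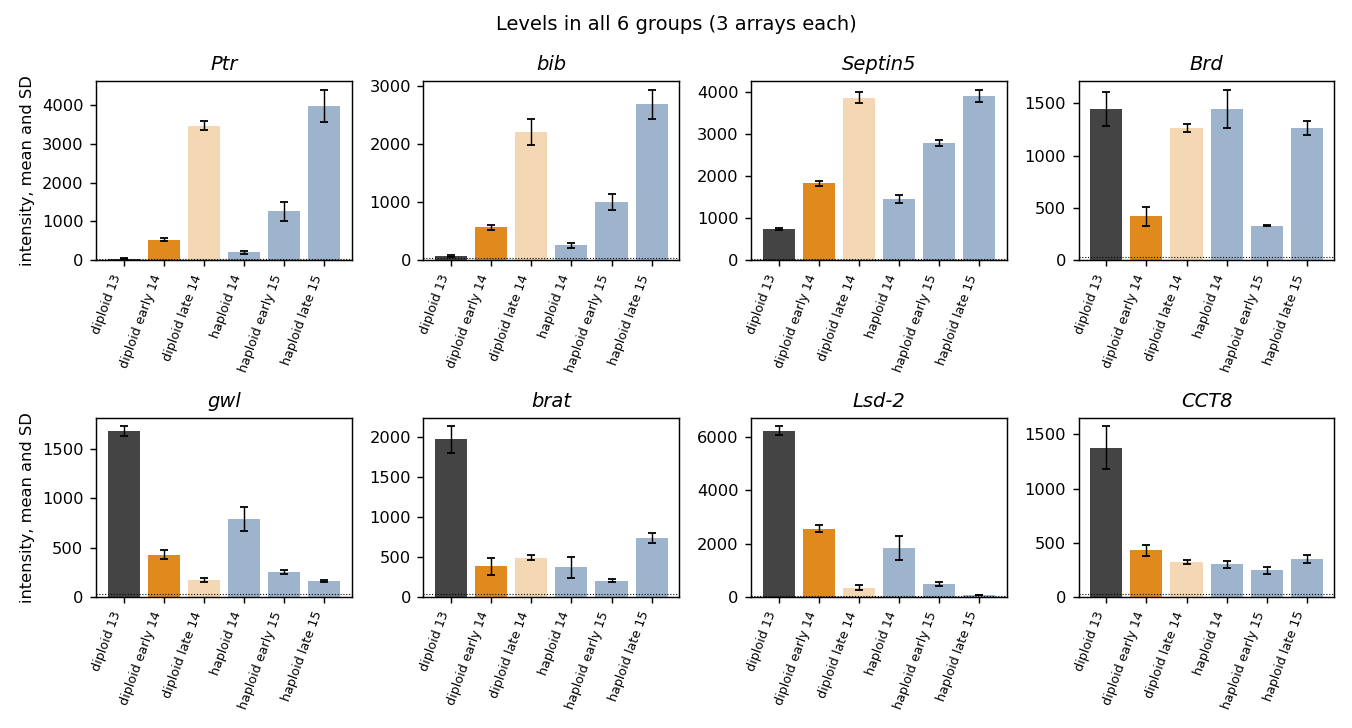
Mean intensity with SD (3 arrays per group) of 8 genes in the 6 groups, with diploid cycle 13 in dark grey, diploid early and late cycle 14 in orange and haploid groups in blue, and the background as a dotted line. Ptr, bib and Septin5 climb through all diploid stages, gwl and Lsd-2 decline through them, and Brd drops at early cycle 14 and stands at 1259.9 ± 37.8 in late cycle 14.

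The corresponding haploid step, from cycle 14 to early cycle 15, shares no array with the diploid one. Of the 325 genes at least 2-fold higher in diploids, 155 were so in haploids, which is 47.7% of the diploid and 44.2% of the haploid list, beside 3.5% of all genes. Of the 626 at least 2-fold lower, 178 were so in haploids, 28.4% of the diploid and 46.8% of the haploid list, beside 3.79% of all genes. The haploid median of the diploid rises was 1.11 and that of the falls -0.63, where all genes had 0.02. The gene bib, for example, rose in haploids from 257 ± 42.8 to 1004 ± 144, and gwl fell from 789 ± 124 to 254 ± 21.5. No rise was called in the opposite direction in haploids, while 30 falls were.

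The changed genes lay on every chromosome arm. On the X chromosome 2.24% of 1604 genes were at least 2-fold higher and 6.98% at least 2-fold lower, and on the autosomal arms other than the fourth chromosome the shares ran from 2.51% to 3.96% and from 5.50% to 6.801%. The fourth chromosome had 57 genes tested, of which 3 were higher and 1 lower.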

How the data were processed

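The deposited table holds linear intensities of 18952 probe sets on 18 arrays, which the authors made with MAS5, per the submitters' processing notes; neither its version nor its scaling target is given in the sources used here. The 18 arrays, 6 groups of 3, were quantile normalised together, values below 0.1 were set to it, and log2 was taken. Probe sets were tested when at least 3 arrays reached the 40th percentile, an intensity of 12.0, which left 14560 of 18769 that are not controls.

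In limma 3.58.1 (R 4.3.3), each of the 6 groups had its own mean and all arrays shared one estimate of the spread, moderated by eBayes with an intensity trend. Benjamini-Hochberg adjustment covered every probe set tested, and calls have an adjusted p below 0.05. Errors of log2 differences are SE, those of intensities SD over n = 3 arrays, whose number limits the precision. With 3 arrays against 3, an exact test of a single gene cannot go below p = 0.1. Labels call the replicates biological. The fit was tested on simulated data.

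Gene symbols came from the array annotation: 13647 probe sets had 1 symbol, 402 several and 4720 none. Each of 10035 genes was represented by its brightest probe set; 735 genes had more than 1, and 21 had probe sets called in opposite directions. Where the lower group was below background on all its arrays, a fold is the higher group's mean over the background, given as "at least". Named genes are the 12 largest rises and falls above background on all 6 arrays, the 10 brightest in each direction of those crossing from below background to 2 times background, up to 6 members per list and direction, uncalled members given by value, and the 5 brightest steady genes. The members and lists were chosen with earlier results of these data known, and the innexin, CCT, tRNA synthetase and other families of the closing part after seeing these values. Same-numbered replicates did not deviate together (r = -0.02, -0.00 and -0.00), so the numbers do not pair the arrays. Alternatives covered scaling, filter, pseudocount, intensity trend, arrays in the fit, replicate block and leaving out each array. Promoter sequences were not used here.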

Additional observations from a re-analysis of the deposited data

Results flagged for a closer look

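The step from haploid cycle 14 to early cycle 15 was set against the diploid step in the same limma fit, for the genes named for their large diploid change. Of 44 such genes, 23 were below background on all arrays of at least 1 of the 4 groups, so that 1 of their steps is only a bound, and they were left out. In 18 of the other 21 the difference between the steps had an adjusted p below 0.05, and in all 18 the haploid step was the smaller one. Because these genes were picked for the size of their diploid step, a smaller haploid step has no weight as evidence of a general difference. The steps also began at different levels. All genes at least 2-fold higher in diploids had a median of 54.9 in haploid cycle 14, beside 24.6 and 73.5 in diploid cycle 13 and early cycle 14. Those at least 2-fold lower had 97.2, beside 296 and 105. The part of the starting level in the smaller steps was not tested.

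Among the rises, the haploid minus diploid difference on the log2 scale was below 0 for rib (-1.43), link (-1.54), bib (-1.05), Ac78C (-1.97), Inx3 (-1.38), mira (-0.49), Dtg (-1.48), Mdr49 (-0.77), CG43085 (-1.56), phyl (-1.87), Sr-CII (-0.98) and l(3)neo38 (-0.55). Among the falls, it was above 0 for Gk2 (2.53), Rab23 (2.01), Mov10 (1.86), RPA1 (1.65), CG31998 (1.75) and del (1.23).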

How the results depend on the processing

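The counts of genes called were the values that moved most with the processing. Against 1983 genes higher, 325 at least 2-fold higher and 626 at least 2-fold lower, centring each array on its ribosomal protein probe sets gave 358, 214 and 1150, and centring on the median gave 1213 genes higher. The count at least 2-fold higher was 213 when probe sets needed 3 of the 6 arrays at background, and 161 on the scale of log2(intensity + 16). The all-gene median was 0.10, and 0.27, 0.10 and -0.09 on the deposited, median-centred and ribosomal protein scales. Ribosomal protein centring kept 65.8% of the 2-fold rises and 99.2% of the falls. Leaving out 1 array gave 1705 to 1867 genes higher, 1114 to 1197 lower, 275 to 361 at least 2-fold higher and 534 to 630 at least 2-fold lower. With the replicate block the 4 counts were 1734, 1460, 263 and 684. The replicate numbers share only a number, and the block moved no count by over 1.5 times.

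Of 143 genes named with a value, 143 kept their direction under each of the 16 alternatives that tested them (en and opa were not tested with 3 of the 6 arrays at background), and 132 kept their call or lack of one. The rules for the largest changes and for crossing background allowed no overlap between the groups. Leaving out 1 array could therefore not turn the direction of those genes. Most other named genes were picked as called on these same arrays, which favours a kept direction. A call was lost by 7 and gained by 4. CG4476 and Ork1 lost their call without any single array (adjusted p of 0.055 to 0.13 and 0.057 to 0.19), and without a filter on dim probe sets or an intensity trend. CG12945 lost it without cycle 13 replicate 1 or 3 or early cycle 14 replicate 2 or 3 (0.064 to 0.083), CG9896 without early cycle 14 replicate 3 (0.051), dmGlut without cycle 13 replicate 3 (0.054) and dl with no intensity trend (0.056). The gene en lost it under 9 alternatives (0.054 to 0.26), with the replicate block among them. On the deposited scale PCNA, CycB3, Tl and cact were called higher, with log2 differences of 0.42, 0.44, 0.40 and 0.44, cact also with 3 of the 6 arrays at background (0.041) and CycB3 with median centring (0.048). Relative to all genes, the median of the kinetochore list was -0.10 and turned to 0.0052 on the deposited, median-centred and ribosomal protein scales, and that of later nervous system markers, -0.34, ran from -0.53 to 0.0048 with 1 array left out, its sign turning without early cycle 14 replicate 1. The cause was not tested. Signal near background limits the dim genes, whose folds are only bounds.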

Other observations

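Of 34 tested genes of the nuclear envelope and pore, 16 were called higher and 4 lower, beside 19.8% and 13.1% of all genes. With ribosomal protein centring 3 were higher and 5 lower. Of 31 tested spliceosome and exon junction genes, 16 were called higher and 2 lower, beside the same shares of all genes. That centring left none higher and 2 lower. Neither list had a gene at least 2-fold higher, and 1 of the nuclear envelope and pore list was at least 2-fold lower, at -1.19 on the log2 scale, and none of the spliceosome list. Of 34 proteasome subunits 11 were called lower and none higher, beside 13.1% and 19.8% of all genes, though on the deposited scale 6 were lower and 10 higher. On the scale used here 2 were at least 2-fold lower, down to -2.26, beside 6.24% of all genes. Of 69 mitochondrial ribosomal proteins, 15 were called higher and 9 lower, near the 19.8% and 13.1% of all genes. With ribosomal protein centring none was higher and 20 were lower. On the scale used here 2 were at least 2-fold lower, down to -2.38, beside 6.24% of all genes.

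Of 23 tested Rab GTPases, 4 were called at least 2-fold lower beside 6.24% of all genes, and none at least 2-fold higher. Rab23 fell from 836 ± 98.1 to 104 ± 8.07 (SD, n = 3; log2 -3.01 ± 0.19, adjusted p = 8.3e-12). Of 64 tested cytochrome P450 genes, 4 were called higher and 3 lower, below the 19.8% and 13.1% of all genes. Among the 4, Cyp310a1 rose from 35.7 ± 1.94 to 107 ± 9.39. The zygotic alpha tubulin alphaTub84D, above background on 2 of 3 cycle 13 arrays, rose from 36.9 ± 8.88 to 97.5 ± 34.8 (log2 1.37 ± 0.23, adjusted p = 4.8e-05).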
